A study of Rattus norvegicus with 93 samples.

Results

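Sox6 and Bcl11a were followed in the femoral bone marrow of rats given topotecan, oxaliplatin or both. They were chosen as a pair of genes by symbol, and every probe set annotated to one of these symbols alone was taken: 1381489_at and 1393376_at for Sox6, and 1383010_at and 1383506_at for Bcl11a, 4 of the 12532 probe sets tested. A probe set is a group of short array probes whose brightness is summarised as 1 log2 value, and differences between groups are given on that log2 scale or as folds.

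Marrow RNA of 93 male Sprague-Dawley rats, 8 weeks old and fitted with a femoral vein cannula, was hybridised to 1 array per rat. Each rat received a pair of intravenous infusions, and the groups are named by the first and then the second infusion: the vehicles NaCl/D5W and D5W/NaCl (saline, the carrier of topotecan, and dextrose in water, the carrier of oxaliplatin), topotecan alone as topotecan/D5W or D5W/topotecan, oxaliplatin alone as oxaliplatin/NaCl or NaCl/oxaliplatin, and the sequential pair in either order. The dose of topotecan, which poisons DNA topoisomerase I, was 4.7 mg/kg, and that of oxaliplatin, a DNA-crosslinking platinum drug, was 15 mg/kg. Marrow was taken 1, 6 or 24 h after the end of the second infusion, from 4 rats in 21 of the 24 groups and from 3 rats in the other 3 (oxaliplatin/NaCl at 6 h, and at 24 h topotecan/D5W and D5W/NaCl). Each infusion lasted 30 min with 30 min between them, so at the 1 h time a drug given first had ended 2 h earlier and a drug given second 1 h earlier.

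Sox6 is an SRY-related HMG-box DNA-binding protein of erythroid precursors, and is also needed for cartilage formation. Bcl11a is a zinc-finger repressor of erythroid, B-lymphoid, plasmacytoid dendritic and stem cells. In red cell precursors both take part in silencing the embryonic or fetal globin genes, Bcl11a by recruiting deacetylase and methylation complexes to the globin locus, and Sox6 is also known to aid red cell survival and maturation. In rodents the switch is from embryonic to adult globins, since there is no separate fetal beta-globin.

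The region before each gene's annotated start is shown because both genes fell together at 1 h after topotecan. The 250 bases end at the base before the start, are written 5′ to 3′ on the gene's own strand, and come from RefSeq on GRCr8: chr1:179665372-179665621, minus strand, for Sox6, and chr14:102231430-102231679, plus strand, for Bcl11a. Capitals mark the motifs searched on both strands that were found, GATAA (the letters bound by GATA factors, TTATC on the other strand) and CANNTG (the E-box).
Sox6: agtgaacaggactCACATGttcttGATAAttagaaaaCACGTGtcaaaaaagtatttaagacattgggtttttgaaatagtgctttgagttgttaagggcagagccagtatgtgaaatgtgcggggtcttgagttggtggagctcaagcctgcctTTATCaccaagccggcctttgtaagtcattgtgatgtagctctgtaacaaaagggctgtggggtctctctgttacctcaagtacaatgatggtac
Bcl11a: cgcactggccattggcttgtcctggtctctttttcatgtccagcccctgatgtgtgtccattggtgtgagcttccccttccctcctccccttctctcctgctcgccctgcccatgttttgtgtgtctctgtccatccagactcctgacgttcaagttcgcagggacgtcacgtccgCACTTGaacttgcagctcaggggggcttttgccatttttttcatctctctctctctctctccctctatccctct
The Sox6 window held GATAA 2 times and CANNTG 2 times, and the Bcl11a window held no GATAA and CANNTG 1 time. Of 33469 rat promoters of this length, 23.5% held GATAA and 65.5% held CANNTG, so the E-box was common. Neither window held AACAAT, letters of Sox factors that 10.3% of all promoters held. The Bcl11a letters TGACCA were also in neither window and in 11.3% of promoters, and the Klf letters CACCC in neither and in 49.2%. The Sox6 window was 42.8% G or C with 3 CG pairs and the Bcl11a window 54.8% with 7, against medians of 51.2% and 5. A match describes letters and not a binding site.

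In vehicle rats all 4 probe sets were well within the range of the arrays. Over the 23 vehicle rats the first Sox6 probe set, 1381489_at, measured 9.47 ± 0.30 (SD, n = 23) and the second, 1393376_at, 7.83 ± 0.43. The first Bcl11a probe set, 1383010_at, measured 9.99 ± 0.26 and the second, 1383506_at, 8.94 ± 0.18. Levels of different probe sets are not set against each other because probes differ in brightness. Averaged over the 93 arrays, 25.0%, 7.02%, 54.7% and 26.9% of the 12532 probe sets were dimmer than these 4 in that order, so the second Sox6 probe set was the dimmest. In vehicle marrow 28 comparisons between times or between infusion orders were made over the 4 probe sets, and limma called none at adjusted p under 0.01, with 2 at an unadjusted p under 0.05.

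Sox6 and Bcl11a were both below vehicle at the 1 h time in each of the 4 groups that received topotecan. At 6 h the first Sox6 probe set was near the vehicle level after topotecan alone and the second differed by -0.59 and -0.26, neither called, and at 24 h both were below vehicle in all 6 treatments, the first among the largest falls of the array. The first Bcl11a probe set showed no such late fall after topotecan alone and was at the vehicle level at 24 h. Oxaliplatin, alone or in combination, held it 1.83- to 2.51-fold below vehicle. The second Bcl11a probe set at 24 h differed by -0.30 in topotecan/D5W, not called, and by -0.55 in D5W/topotecan, called. Changes were tested with limma against the vehicle of the same infusion order and time, and a call means an adjusted p, taken over the 12532 probe sets, under 0.01. Over the 18 comparisons with vehicle, the Sox6 probe sets were called lower in 11 and 12 and the Bcl11a probe sets in 13 and 15, and none was called higher.

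At 1 h the first Sox6 probe set was lowest where topotecan came first. In topotecan/D5W the 4 rats measured 6.37, 6.62, 6.93 and 7.05, against 9.00, 9.30, 9.38 and 9.65 in NaCl/D5W. In D5W/topotecan they measured 6.33, 7.56, 7.64 and 8.01, against 8.95, 9.22, 9.46 and 9.56 in D5W/NaCl. No topotecan rat reached the lowest vehicle rat of its order, and 1 rat of D5W/topotecan stood below the other 3. Topotecan/oxaliplatin rats measured 6.38, 6.56, 6.76 and 6.87, and oxaliplatin/topotecan rats 7.58, 7.60, 7.75 and 7.80, again without overlap with vehicle.

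The falls of this Sox6 probe set were 6.02-fold in topotecan/D5W (log2 difference -2.59, SE 0.23, limma adjusted p = 7.55e-12) and 3.77-fold in D5W/topotecan (-1.91, SE 0.26, adjusted p = 1.69e-07). They were 6.45-fold in topotecan/oxaliplatin (-2.69, adjusted p = 1.62e-12) and 3.07-fold in oxaliplatin/topotecan (-1.62, adjusted p = 2.74e-06). The second Sox6 probe set moved the same way, with rats of topotecan/D5W at 5.64 to 6.00 against 6.88 to 8.05 in NaCl/D5W, and falls of 3.54-, 2.59-, 3.62- and 2.54-fold in the same order of groups. After oxaliplatin alone neither Sox6 probe set was called: the first differed from vehicle by -0.56 in oxaliplatin/NaCl (adjusted p = 0.346) and -0.01 in NaCl/oxaliplatin (adjusted p = 0.987). The second differed by -0.61 (adjusted p = 0.162) and 0.16 (adjusted p = 0.771). The 4 oxaliplatin/NaCl rats of the first probe set, at 8.58 to 8.95, nevertheless lay no higher than the lowest D5W/NaCl rat (exact permutation p = 0.0286), and at 6 h the second probe set gave -0.57 there (adjusted p = 0.0876, exact permutation p = 0.0286).

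Bcl11a also fell at 1 h, but in its first probe set the group order was the reverse, with the lowest levels where topotecan came second. In topotecan/D5W the 4 rats measured 8.79, 9.01, 9.26 and 9.40, against 9.88, 10.04, 10.24 and 10.36 in NaCl/D5W. In D5W/topotecan they measured 7.94, 8.12, 8.32 and 8.40, against 10.04, 10.06, 10.19 and 10.27 in D5W/NaCl. In topotecan/oxaliplatin they measured 8.09, 8.56, 8.58 and 8.70, and in oxaliplatin/topotecan 6.94, 7.06, 7.21 and 7.22. None of these groups overlapped its vehicle, and the oxaliplatin/topotecan rats at 1 h were below every rat of the other 23 groups.

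The fall of the first Bcl11a probe set was 8.18-fold in oxaliplatin/topotecan (log2 difference -3.03, SE 0.15, limma adjusted p = 3.66e-18), which only 2 of the 12532 probe sets exceeded in that comparison. It was 3.85-fold in D5W/topotecan (-1.95, adjusted p = 5e-13), 3.13-fold in topotecan/oxaliplatin (-1.65, adjusted p = 7.48e-11) and 2.02-fold in topotecan/D5W (-1.02, adjusted p = 2.93e-06). Oxaliplatin/NaCl was 1.63-fold lower (-0.71, adjusted p = 0.0044), with rats at 9.32 to 9.52, a call lost when any of 5 of the 8 rats was left out, and NaCl/oxaliplatin, at 9.63 to 10.06, was not called (-0.35, adjusted p = 0.311). The second Bcl11a probe set did not show this order: the falls were 2.07-fold in both topotecan/D5W and D5W/topotecan, 2.24-fold in topotecan/oxaliplatin and 2.53-fold in oxaliplatin/topotecan, and oxaliplatin alone was not called (adjusted p = 0.075 and 0.468).

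These 1 h counts stand against a broad response. The share of all probe sets called lower against vehicle at 1 h was 26% in topotecan/D5W, 19.5% in D5W/topotecan, 32.9% in topotecan/oxaliplatin and 27.6% in oxaliplatin/topotecan, where all 4 probe sets were called. It was 0.654% in oxaliplatin/NaCl, where 1 of the 4 was called, and 0.0239% in NaCl/oxaliplatin, where limma called none of the 4 and 1, the first Bcl11a probe set, had an unadjusted p under 0.05.

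**Figure D1:**
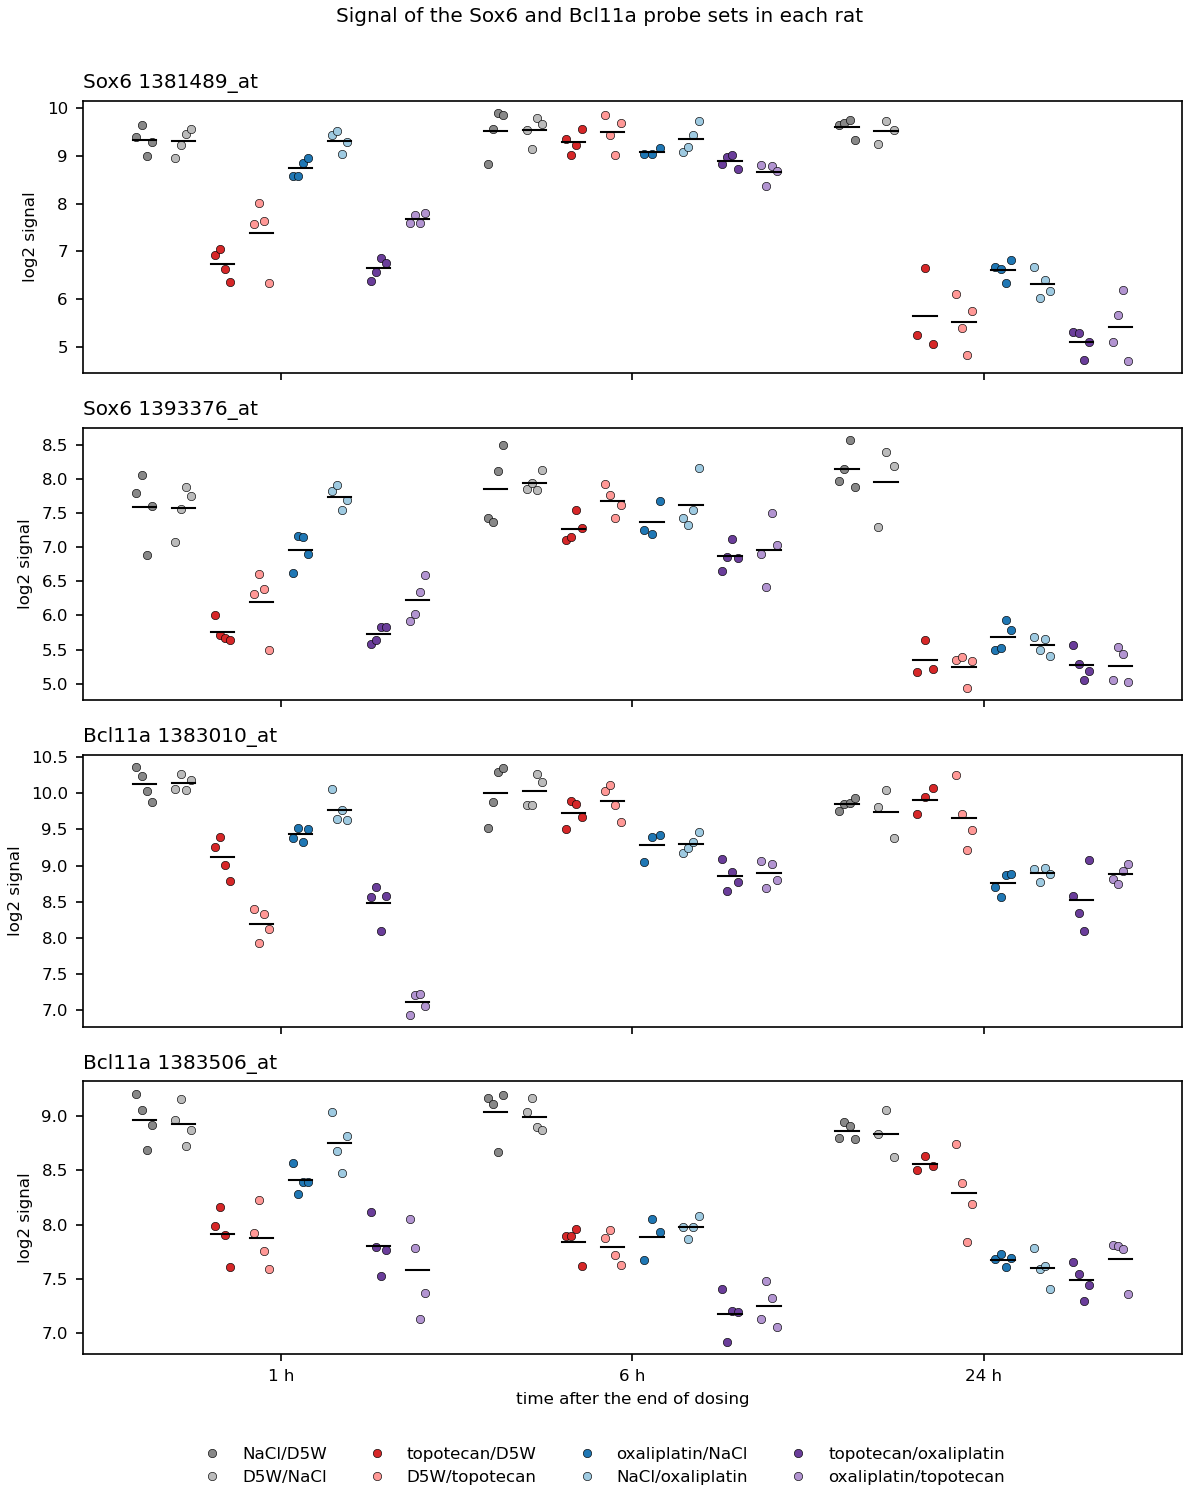
log2 level (vertical axis) of each Sox6 and Bcl11a probe set in every rat, by treatment and time after the second infusion, with a point for each rat and a bar for each group mean. Sox6 is low at 1 h after topotecan, higher at 6 h and lowest at 24 h in all treatments, whereas the first Bcl11a probe set is lowest at 1 h in oxaliplatin/topotecan, at 6.94 to 7.22.

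At 6 h the first Sox6 probe set was near the vehicle level after topotecan alone. It measured 9.01, 9.23, 9.34 and 9.56 in topotecan/D5W, within the range of the NaCl/D5W rats (8.82 to 9.89). In D5W/topotecan it measured 9.02, 9.44, 9.68 and 9.86, with the lowest rat below and the highest above the range of the D5W/NaCl rats (9.14 to 9.80). The log2 differences were -0.24 (adjusted p = 0.401) and -0.04 (adjusted p = 0.917). In the combinations, topotecan/oxaliplatin rats measured 8.72, 8.82, 8.98 and 9.01 and were not called (-0.64, adjusted p = 0.0177), and oxaliplatin/topotecan rats measured 8.37, 8.68, 8.79 and 8.80, a 1.83-fold fall (adjusted p = 0.00494) that was lost when any of 5 of the 8 rats was left out. After topotecan alone the second Sox6 probe set was not called: topotecan/D5W rats were at 7.10 to 7.55 against a lowest vehicle rat of 7.37 (-0.59, adjusted p = 0.0151, and -0.37 without NaCl/D5W replicate 10, adjusted p = 0.129). That difference was called with both vehicles pooled (-0.63, adjusted p = 0.00278) and after a second quantile normalization (-0.63, adjusted p = 0.00444), and in D5W/topotecan it was -0.26 (adjusted p = 0.356). The second Sox6 probe set was called lower in both combinations (-0.99 and -0.97, adjusted p = 8.97e-05 and 0.000356).

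The change between times was tested within each treatment as the difference of the differences from vehicle, a comparison chosen after the data were seen. From 1 to 6 h the first Sox6 probe set rose by 2.35 on the log2 scale in topotecan/D5W (limma adjusted p = 5.05e-07), by 1.88 in D5W/topotecan (adjusted p = 9.23e-05) and by 2.05 in topotecan/oxaliplatin (adjusted p = 5.16e-06). In oxaliplatin/topotecan the change was 0.74 (adjusted p = 0.109).

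The Bcl11a probe sets parted at 6 h. The first was near vehicle after topotecan alone, at 9.51 to 9.89 in topotecan/D5W (-0.28, adjusted p = 0.16) and 9.60 to 10.12 in D5W/topotecan (-0.13, adjusted p = 0.506). It rose from 1 to 6 h by 1.81 in D5W/topotecan (adjusted p = 1.90e-08) and by 1.90 in oxaliplatin/topotecan (adjusted p = 1.14e-08), and the rises of 0.74 in topotecan/D5W and 0.49 in topotecan/oxaliplatin were not called (adjusted p = 0.0119 and 0.091). It was below vehicle wherever oxaliplatin was given: 1.67-fold in oxaliplatin/NaCl, 1.63-fold in NaCl/oxaliplatin, 2.23-fold in topotecan/oxaliplatin and 2.19-fold in oxaliplatin/topotecan, all called.

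The second Bcl11a probe set did not recover at 6 h in any treatment. Rats measured 7.62, 7.90, 7.90 and 7.96 in topotecan/D5W, against 8.67, 9.11, 9.16 and 9.19 in NaCl/D5W. Falls were 2.28- and 2.3-fold in topotecan/D5W and D5W/topotecan, 2.15- and 2.08-fold in oxaliplatin/NaCl and NaCl/oxaliplatin, and 3.61- and 3.35-fold in topotecan/oxaliplatin and oxaliplatin/topotecan. No rat of a treated group reached the lowest vehicle rat of its order, and the 8 rats of the combinations, at 6.92 to 7.48, had the lowest group means of this probe set in the series.

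At 6 h the share of all probe sets called lower was 25.6% in topotecan/D5W and 20.4% in D5W/topotecan, where 1 of the 4 probe sets was called, and 7.25% in oxaliplatin/NaCl and 9.69% in NaCl/oxaliplatin, where both Bcl11a probe sets were. It was 27.6% in topotecan/oxaliplatin, with 3 of 4 called, and 27.5% in oxaliplatin/topotecan, with 4 of 4.

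At 24 h Sox6 was far below vehicle in every treatment. The first probe set measured 5.06, 5.24 and 6.65 in topotecan/D5W and 4.83, 5.39, 5.74 and 6.10 in D5W/topotecan. Vehicle rats measured 9.33, 9.63, 9.69 and 9.74 in NaCl/D5W and 9.25, 9.54 and 9.74 in D5W/NaCl. The lowest vehicle rat was more than 2 units above the highest treated rat of any group, so none overlapped.

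After oxaliplatin alone, where Sox6 was not called at 1 and 6 h, it was also lower at 24 h. Rats measured 6.35, 6.64, 6.67 and 6.81 in oxaliplatin/NaCl and 6.03, 6.17, 6.40 and 6.68 in NaCl/oxaliplatin. The combinations were at 4.72, 5.10, 5.30 and 5.32 in topotecan/oxaliplatin and 4.71, 5.10, 5.67 and 6.18 in oxaliplatin/topotecan.

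As folds, these 24 h falls were 15.4 in topotecan/D5W (log2 difference -3.95, SE 0.25, limma adjusted p = 3.9e-15), 15.9 in D5W/topotecan (-3.99, SE 0.28, adjusted p = 4.22e-14), 22.5 in topotecan/oxaliplatin (-4.49, SE 0.23, adjusted p = 1.33e-18) and 17.1 in oxaliplatin/topotecan (-4.10, adjusted p = 5.27e-15). They were 7.42 in oxaliplatin/NaCl (-2.89, adjusted p = 1.32e-10) and 9.71 in NaCl/oxaliplatin (-3.28, adjusted p = 1.37e-14). Ordered by size of fall among the 12532 probe sets, this probe set held rank 3 in topotecan/D5W, topotecan/oxaliplatin and D5W/topotecan, 4 in oxaliplatin/topotecan, 7 in NaCl/oxaliplatin and 10 in oxaliplatin/NaCl. The second Sox6 probe set fell 4.84- to 7.26-fold over the 6 treatments, again with no overlap.

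From 6 to 24 h the first Sox6 probe set changed by -3.71 in topotecan/D5W, -3.95 in D5W/topotecan, -3.85 in topotecan/oxaliplatin, -3.22 in oxaliplatin/topotecan, -3.11 in NaCl/oxaliplatin and -2.44 in oxaliplatin/NaCl, all called.

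Bcl11a at 24 h separated the drugs. The first probe set measured 9.71, 9.95 and 10.07 in topotecan/D5W and 9.21, 9.49, 9.71 and 10.25 in D5W/topotecan, among vehicle rats at 9.76 to 9.94 in NaCl/D5W and 9.38 to 10.05 in D5W/NaCl. The differences were 0.06 (95% interval -0.30 to 0.42, adjusted p = 0.815) and -0.08 (-0.42 to 0.25, adjusted p = 0.705). With oxaliplatin it measured 8.57, 8.70, 8.86 and 8.88 in oxaliplatin/NaCl and 8.77, 8.88, 8.95 and 8.97 in NaCl/oxaliplatin, falls of 1.99- and 1.94-fold without overlap (adjusted p = 4.34e-06 and 4.28e-06). The combinations were 2.51-fold (topotecan/oxaliplatin, 8.10 to 9.07) and 1.83-fold lower (oxaliplatin/topotecan, 8.75 to 9.02).

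The second Bcl11a probe set rose in topotecan/D5W from 6 to 24 h (0.89, adjusted p = 0.000489) and was then not called against vehicle (-0.30, adjusted p = 0.0748). In D5W/topotecan it was called 1.46-fold lower (adjusted p = 0.00846), but its rats, at 7.84, 8.19, 8.39 and 8.74, overlapped the vehicle rats at 8.62, 8.84 and 9.05, and the call was lost when any of 5 of the 7 rats was left out. The other 4 treatments were 2.22- to 2.59-fold lower without overlap.

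At 24 h the share of all probe sets called lower was 17.3% in topotecan/D5W, where 2 of the 4 were called, and 18.3% in D5W/topotecan, where 3 were. It was 26.4% in oxaliplatin/NaCl, 30.2% in NaCl/oxaliplatin, 35.2% in topotecan/oxaliplatin and 33.3% in oxaliplatin/topotecan, where all 4 were called.

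**Figure D2:**
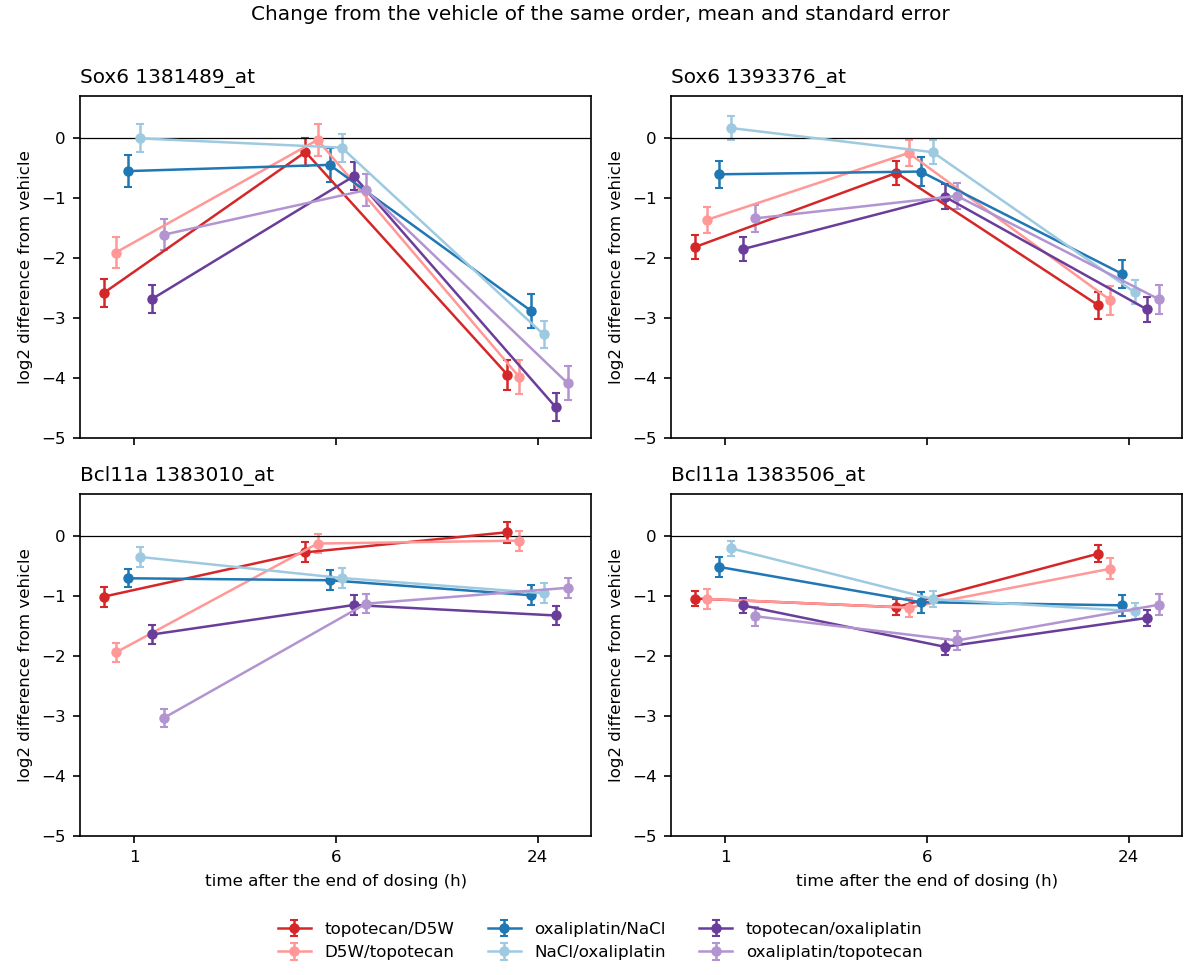
log2 difference from the vehicle of the same order (vertical axis) of each Sox6 and Bcl11a probe set against time after the second infusion (1, 6 and 24 h), with a line for each treatment and bars of 1 standard error. The Sox6 lines of topotecan groups return towards 0 at 6 h and reach -2.69 to -4.49 at 24 h, and the first Bcl11a probe set ends near 0 after topotecan alone and near -1 after oxaliplatin.

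The exact two-sided permutation test over the rats of each pair of groups can give no p below 0.0286 with 4 against 4 rats. Of the 18 comparisons with vehicle, 12 and 13 for the Sox6 probe sets and 13 and 16 for the Bcl11a probe sets had p under 0.05, the smallest being 0.0286. In the order of the 24 group means, neighbouring groups did not overlap in 2 and 1 of 23 places for the Sox6 probe sets and in 1 and 0 for the Bcl11a probe sets. For both Sox6 probe sets 1 such gap lay above oxaliplatin/topotecan at 1 h, between the groups that had fallen most and the rest, and for Bcl11a the gap lay above oxaliplatin/topotecan at 1 h alone. The permutation and overlap counts were made for these 4 probe sets only, so no share of all probe sets stands beside them.

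Topotecan and oxaliplatin were also compared directly within each order. At 1 h the first Sox6 probe set was lower after topotecan, both where topotecan came first (topotecan/D5W minus NaCl/oxaliplatin, -2.58, limma adjusted p = 1.23e-11) and where it came second (D5W/topotecan minus oxaliplatin/NaCl, -1.36, adjusted p = 9.37e-05). At 24 h the second of these was -1.10 (adjusted p = 0.00308) and the first -0.67 (adjusted p = 0.0411), or -1.17 (adjusted p = 0.00027) without the topotecan/D5W rat at 6.65. For the first Bcl11a probe set the direction turned with time: topotecan was lower at 1 h (-0.66 and -1.24, adjusted p = 0.00119 and 4.08e-08) and higher at 24 h (1.02 and 0.91, adjusted p = 3.34e-05 and 7.65e-05).

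The second Sox6 probe set was also lower after topotecan at 1 h (-1.98 and -0.76, adjusted p = 3.31e-10 and 0.0084), and at 24 h it differed by -0.22 and -0.44, neither called, at low group means of 5.25 to 5.69. The second Bcl11a probe set gave -0.84 (adjusted p = 1.4e-06) and -0.53 (adjusted p = 0.0103) at 1 h, and 0.96 and 0.61 at 24 h (adjusted p = 1.72e-06 and 0.00726). The share of all probe sets called in either direction between the drugs was 32.8% and 19% at 1 h, 14% and 4.72% at 6 h, and 17.9% and 8.21% at 24 h, topotecan first and then second. At 6 h none of the 4 probe sets was called in either order, with adjusted p-values down to 0.0129.

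**Figure D3:**
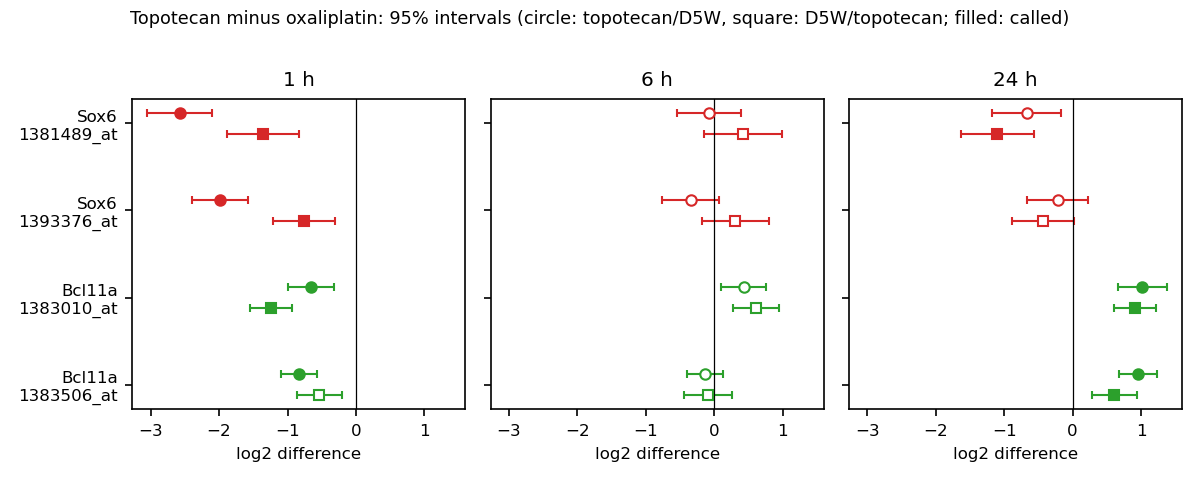
log2 difference between rats given topotecan alone and rats given oxaliplatin alone (horizontal axis) with 95% intervals, for each Sox6 and Bcl11a probe set, time and order, where values below 0 mean lower after topotecan. Both genes lie below 0 at 1 h, and at 24 h Bcl11a lies above 0 (0.61 to 1.02) while Sox6 stays below 0.

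Each combination was compared with its single agents of the same order and time. For Sox6 the called differences were from oxaliplatin: against oxaliplatin alone the first probe set was lower at 1 h (-2.68 for topotecan/oxaliplatin and -1.06 for oxaliplatin/topotecan, adjusted p = 2.81e-12 and 0.00134) and at 24 h (-1.21 and -1.20, adjusted p = 0.000139 and 0.00151). Against topotecan alone at 24 h it differed by -0.54 and -0.10 (adjusted p = 0.0792 and 0.813). The 1 h call of oxaliplatin/topotecan against oxaliplatin/NaCl was lost after a second quantile normalization (-0.80, limma adjusted p = 0.0129) and after median centring (-0.85, adjusted p = 0.0104). The second Sox6 probe set, called there at -0.73 (adjusted p = 0.00835), lost its call in the same settings (-0.59 and -0.53, adjusted p = 0.0308 and 0.0473).

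For Bcl11a the agent from which the combination differed changed with time. At 1 h the first probe set was lower in the combinations than after oxaliplatin alone (-1.29 and -2.32, adjusted p = 2.49e-08 and 8.99e-15), and at 24 h lower than after topotecan alone (-1.39 and -0.79, adjusted p = 1.27e-07 and 0.000153) while differing from oxaliplatin alone by -0.37 and 0.12 (adjusted p = 0.0947 and 0.659). In 1 group it fell below both agents at the same time: oxaliplatin/topotecan at 1 h was also below D5W/topotecan (-1.09, adjusted p = 0.000216). At 6 h the second probe set in topotecan/oxaliplatin was lower than after topotecan alone (-0.66, adjusted p = 0.00118) and than after oxaliplatin alone (-0.79, adjusted p = 8.11e-06).

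Of the 12 such comparisons per probe set, 4 and 3 were called for Sox6 and 7 and 7 for Bcl11a, all lower in the combination. The share of all probe sets called in either direction in topotecan/oxaliplatin was 0%, 1.32% and 29.6% against topotecan/D5W at 1, 6 and 24 h, and 39%, 17% and 15.9% against NaCl/oxaliplatin. In oxaliplatin/topotecan it was 26.3%, 13.4% and 5.93% against oxaliplatin/NaCl and 0.239%, 4.09% and 16.8% against D5W/topotecan. The called fall of Bcl11a against D5W/topotecan at 1 h lay in a comparison with few calls in either direction.

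Infusion order was tested as a difference of differences in 1 fit of all 24 groups. Only the first Bcl11a probe set was called, at 1 h: its change was 0.93 higher when topotecan came first than when it came second (95% interval 0.48 to 1.38, limma adjusted p = 0.0016), and 1.39 higher in topotecan/oxaliplatin than in oxaliplatin/topotecan (0.93 to 1.84, adjusted p = 5.52e-06). The second Bcl11a probe set gave 0.01 and 0.18 (adjusted p = 0.988 and 0.613), and the first Sox6 probe set -0.67 and -1.07 (adjusted p = 0.183 and 0.0262), with the opposite sign. The share of all probe sets called in either direction was 12.2% for topotecan, 0% for oxaliplatin and 9.85% for the combination. At 6 and 24 h no order comparison of the 4 probe sets had an adjusted p below 0.943 and 0.543, and none of 12 at either time had an unadjusted p under 0.05. At 1 h the order changes the time since topotecan as well, 2 h or 1 h, and order and interval cannot be told apart. The sample codes of the labels also hold a number that at 1 and 6 h was shared by both vehicles, topotecan/D5W and oxaliplatin/NaCl and was another for D5W/topotecan, NaCl/oxaliplatin and the combinations. What it stands for is not given, and across it the number and the treatment cannot be told apart, whereas the combinations of both orders shared their numbers, as the vehicles did.

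Both probe sets of a gene measure the same symbol but not always the same change, which was compared rat by rat. At 24 h the first Sox6 probe set fell further than the second in all 6 treatments, with differences between their changes of -0.62 to -1.63, with no overlap between treated and vehicle rats. Treated group means were then 5.25 to 5.69 for the second probe set and 5.11 to 6.62 for the first, and the lowest value of the arrays was 3.94. Low signal may limit a further measurable fall or a difference between treatments, which was not tested. Bcl11a differed more by time: the first probe set fell further at 1 h, with differences of -1.69 in oxaliplatin/topotecan, -0.89 in D5W/topotecan and -0.48 in topotecan/oxaliplatin (exact permutation p = 0.0286 each), not in topotecan/D5W (0.03, exact permutation p = 0.743), and at 6 h the second fell further by 1.07 in D5W/topotecan (exact permutation p = 0.0286). Whether they detect different transcripts or ends of Bcl11a was not tested.

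After removal of group means, the pair of Sox6 probe sets still moved together from rat to rat (r = 0.66, rho = 0.70 over 93 arrays, permutation p within groups, Benjamini-Hochberg adjusted over 6 relations, 6e-05 for r, and r = 0.63 without the 2 arrays farthest from the median). The Bcl11a pair gave r = 0.32 and rho = 0.27 (adjusted permutation p = 0.023 and 0.046, r = 0.28 without the 2 farthest arrays). Between the genes r was 0.14 to 0.32 over the 4 pairings, with adjusted permutation p-values for r of 0.023 to 0.29, and rho 0.13 to 0.32. The first Sox6 and first Bcl11a probe sets gave r = 0.32 and 0.34 without the 2 farthest arrays. Arrays share processing, which also enters these values.

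The genes most like each probe set were found by Pearson r over the 93 arrays among probe sets with 1 symbol, as a description without a test. For the first Sox6 probe set they were Dpf3 (r = 0.929), Top1 (0.928), Dlgap5 (0.917), Hbs1l (0.916) and Nedd4l (0.913), and for the second Nedd4l (0.916), Fbxo3 (0.913), Dpf3 and Pip5k1b (0.903 each) and Sltm (0.895). Top1 encodes the target of topotecan, and at 24 h it was called lower in all 6 treatments (-0.61 to -1.18). Dpf3, a chromatin-remodelling subunit, differed by -1.94 to -2.52 at 24 h, called in all 6 treatments, and was not called at 6 h, where its differences were -0.31 to 0.46.

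For the first Bcl11a probe set the most alike were Arid2 (0.888), Ehmt1 (0.885), Mllt10 (0.883), Rbm6 (0.881) and Taf3 (0.868), mostly chromatin or transcription proteins, and for the second Ppm1g (0.892), Acss1 (0.882), Klhl5 (0.872), Pbx3 (0.866) and Mnd1 (0.859). No symbol was shared between the Bcl11a lists, whereas the Sox6 lists shared Dpf3 and Nedd4l. The choice depended on the measure. Of the 5 symbols of each probe set, 2 to 4 were also among the top 5 by Spearman rho. By Pearson r of the differences of the 70 treated rats from their vehicle means, 1 or 2 were, and Pbx3 fell to rank 104.

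Sox6 is one of the longest genes on the array. On GRCr8, in the RefSeq annotation, its locus spans 611566 bp, and 18 of 7787 genes with a length (0.231%) are longer, while Bcl11a spans 95143 bp, with 1123 genes (14.4%) longer. Because longer genes were lower at 1 h after topotecan, both were placed among genes of like length. In topotecan/D5W the median log2 difference was 0.03 for genes under 20000 bp, -0.25 for 50000 to 100000 bp (37.9% called lower) and -0.62 for the 41 genes of 500000 bp or more (61% called lower), against -2.59 for Sox6 and -1.02 for Bcl11a. In oxaliplatin/topotecan the medians were 0.07, -0.51 and -0.34, against -1.62 for Sox6 and -3.03 for Bcl11a. After oxaliplatin alone the medians of all length classes lay between -0.22 and 0.03. The part of length in the falls of Sox6 and Bcl11a was not tested.

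**Figure D4:**
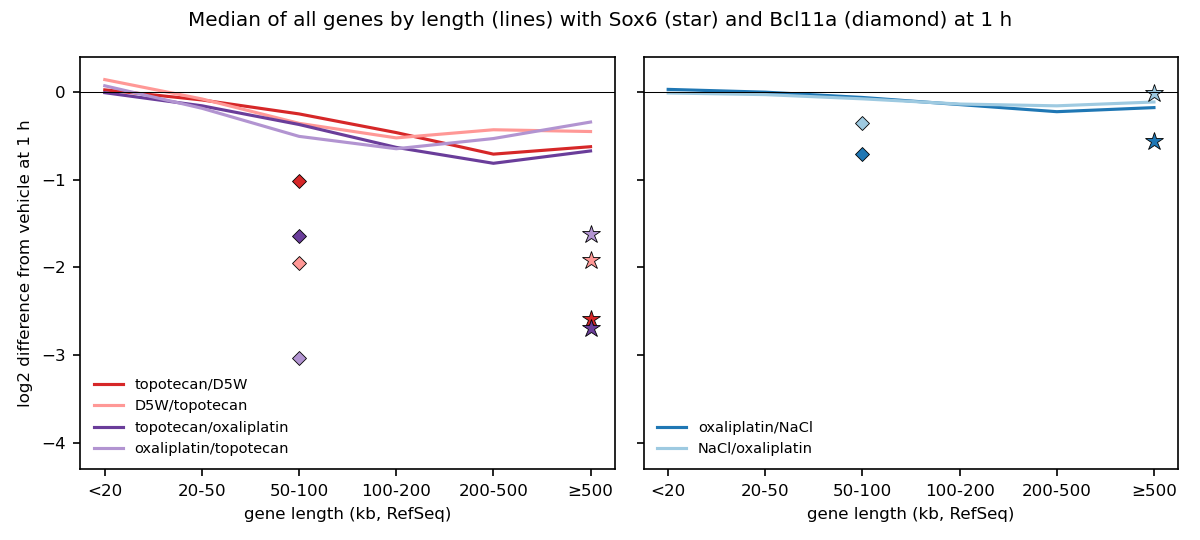
log2 difference from vehicle at 1 h (vertical axis) against class of gene length in kb on GRCr8 (horizontal axis), with a line for the class medians of each treatment and the first probe set of Sox6 (star) and of Bcl11a (diamond) at its class. In the 4 topotecan groups both genes lie below the median of their class, Sox6 at -1.62 to -2.69 and Bcl11a at -1.02 to -3.03.

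Bulk marrow cannot tell fewer cells of a type from less RNA per cell, which applies to every level here. Fewer markers of red cell precursors were called at 1 h than at 24 h: of 18 measured erythroid precursor genes, 0 to 3 were called lower at 1 h, 4 to 9 at 6 h and 16 to 17 at 24 h, against 17.3% to 35.2% of all probe sets at 24 h, when their median differences were -1.32 to -2.19 over the 6 treatments. The share of all probe sets called lower was 19.5% to 32.9% at 1 h in the topotecan groups, and 7.25% to 27.6% at 6 h over the 6 treatments. The median of all probe sets lay between -0.14 and 0.03 in the 18 comparisons. Single members were already low at 1 h in both orders. Where topotecan came first, Tfr2 (a transferrin receptor) differed by -2.04 in topotecan/D5W and -2.31 in topotecan/oxaliplatin, and Car1 (carbonic anhydrase) by -1.27 and -1.48, all called. Ank1 was called in topotecan/D5W (-0.65). Where topotecan came second, Ank1 differed by -1.03 in D5W/topotecan and -0.82 in oxaliplatin/topotecan, and Slc25a37 by -0.69 and -0.61, all called. Gypc was called lower in D5W/topotecan (-0.53) and Tfr2 in oxaliplatin/topotecan (-0.75). In the order comparisons Tfr2 gave -1.64 and -1.56 (adjusted p = 2.27e-05 and 7.38e-05), the same sign as the first Sox6 probe set. The list median did not share that sign, at 0.27 for topotecan and 0.07 for the combination. The medians of all probe sets were -0.03 and -0.01. Of the 18 genes, 1 was called lower in each comparison, and 1 and 0 were called higher, counts chosen after the data were seen. Of all probe sets, 918 and 596 were called lower and 606 and 638 higher. At 6 h, with the first Sox6 probe set near vehicle after topotecan alone, Car1 differed by -3.61 in topotecan/D5W and -3.30 in D5W/topotecan, Tfr2 by -3.49 and -3.11, and Uros (an enzyme of heme synthesis) by -2.60 and -2.30. Alas2, of the same list, was instead called higher at 1 h in topotecan/oxaliplatin (0.24). It was also called higher at 6 h in topotecan/D5W (0.29), topotecan/oxaliplatin (0.27) and oxaliplatin/topotecan (0.31). The mean over the list was 11.96 to 12.35 per array in vehicle rats at 24 h, 9.51 to 10.84 in rats given topotecan and 10.40 to 10.71 after oxaliplatin alone, and the arrays of treated rats lay below all vehicle arrays, as Sox6 did. The part of these genes in the 1 h and 24 h falls of Sox6 was not tested.

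A further marker list was set beside Bcl11a. Of 11 measured B cell precursor genes, 5 and 7 were called lower at 1 h in D5W/topotecan and oxaliplatin/topotecan (medians -0.53 and -0.71) and 2 in each of topotecan/D5W and topotecan/oxaliplatin (-0.09 and -0.01), the same division by order as the first Bcl11a probe set. The shares of all probe sets called lower in these 4 groups were 19.5%, 27.6%, 26% and 32.9%. In the order comparison, a count chosen after the data were seen, 2 of 11 were called higher with topotecan first (median 0.56) and 5 of 11 for the combination (0.71), while the medians of all probe sets were -0.03 and -0.01. Of all 12532 probe sets, 606 and 638 were called higher in these comparisons. At 6 h Il7r was called higher in 5 treatments and Ms4a1 in 4, and Tcf3 lower in 4. Bank1 was called higher in 2 and lower in 2. The second Bcl11a probe set was called lower in 6 of 6 at that time. At 24 h the list median was 0.12 in topotecan/D5W, -0.49 and -0.47 after oxaliplatin alone, -0.68 in topotecan/oxaliplatin and -0.03 in oxaliplatin/topotecan. In oxaliplatin/topotecan at 24 h its members went both ways, with Cd24 (-1.40) and Tcf3 (-1.03) called lower and Ms4a1 (1.15) and Bank1 (0.67) called higher. Its part in the Bcl11a levels was not tested.

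Chondrocyte and muscle genes were also counted, since Sox6 acts in cartilage and femoral marrow can carry other tissue. Chondrocyte genes did not fall with Sox6: the median of 7 was 0.68 to 1.00 higher at 24 h, with 0 or 1 called. Skeletal muscle genes were high on 3 arrays, 1 of topotecan/oxaliplatin at 6 h (list mean 9.89) and 2 of oxaliplatin/NaCl at 24 h (8.96 and 8.92), against a median array of 6.06. Without these arrays the 24 h fall of the first Sox6 probe set below oxaliplatin/NaCl was no longer called in oxaliplatin/topotecan (-1.17, adjusted p = 0.0223) or D5W/topotecan (-1.06, adjusted p = 0.0413).

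The other factors that silence or switch globin genes are described from lists chosen with earlier results of these data known. Measured were 14 genes that encode proteins of the repressor complexes working with Bcl11a, the deacetylase, nuclear receptor corepressor and DNA methylation proteins. Of these genes, 8 to 11 were called lower at 1 h in the topotecan groups and none after oxaliplatin alone. The share of all probe sets called lower in the topotecan groups was 19.5% to 32.9%. Ncor1, a corepressor, differed by -0.98 in topotecan/D5W, -0.90 in D5W/topotecan, -1.09 in topotecan/oxaliplatin and -0.84 in oxaliplatin/topotecan, against -0.06 and -0.02 after oxaliplatin alone. At 6 h 5 to 13 were lower, against 7.25% to 27.6% of all probe sets, and at 24 h 3 to 10, against 17.3% to 35.2%. The 3 of 14 in topotecan/D5W at 24 h were near the share of all probe sets there, 17.3%. None was called higher. Dnmt1, the maintenance DNA methyltransferase, differed by -0.49 to -1.51 at 6 h and -0.64 to -1.33 at 24 h.

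Among 13 other regulators of globin switching, 7 to 9 were called lower at 24 h in each treatment, against 17.3% to 35.2% of all probe sets, and 0 to 5 at 1 h, when the shares of all probe sets in the topotecan groups were 19.5% to 32.9%. Klf1, the erythroid factor that activates adult beta-globin and Bcl11a, was at -1.99 to -2.97 at 24 h but at -0.17 to 0.10 at 1 h, when Sox6 and Bcl11a had already fallen. Eif2ak1, the heme-regulated kinase, was at -1.26 to -1.78, Gata1 at -0.94 to -1.37 and its cofactor Zfpm1 at -0.72 to -1.27. Myb, a progenitor factor, differed by -0.11 in topotecan/D5W, -1.59 in topotecan/oxaliplatin and -1.44 in oxaliplatin/topotecan. Satb1, a chromatin organiser of lymphoid cells, was called lower at 1 h in the 4 topotecan groups (-0.64 to -1.59). At 24 h it was instead called higher in 5 of 6 treatments, with differences of 0.41 to 1.08. Of the relatives of Sox6 and Bcl11a, Sox4 was measured, and it was called higher at 1 h in topotecan/oxaliplatin (0.66) and D5W/topotecan (0.60).

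Among the 4 measured genes of the globin list, the embryonic beta-type globin Hbe1 rose at 6 h in the 4 groups given topotecan. Its vehicle mean was 7.44 against 15.3 for Hbb, the adult beta-globin. In topotecan/D5W the rats measured 9.46, 9.49, 9.95 and 10.10, against 7.16, 7.47, 7.74 and 8.02 in NaCl/D5W, and the rise was 2.15 (limma adjusted p = 1.25e-11). In D5W/topotecan they measured 8.39, 9.33, 9.44 and 9.52, against 7.31, 7.49, 7.53 and 7.61 in D5W/NaCl, a rise of 1.68 (adjusted p = 1.27e-08). No treated rat of either group overlapped its vehicle.

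Topotecan/oxaliplatin rats measured 8.69, 9.29, 9.30 and 9.78 for Hbe1 (1.67, adjusted p = 3.83e-09), and oxaliplatin/topotecan rats 8.29, 8.55, 8.78 and 8.95 (1.16, adjusted p = 8.92e-06). After oxaliplatin alone the differences were -0.06 and 0.11 (adjusted p = 0.843 and 0.764). At 1 h they were 0.15 to 0.53 (adjusted p from 0.0319) and at 24 h, when Sox6 was lowest, -0.05 to 0.51 (adjusted p from 0.0217). At 6 h the first probe sets of Sox6 and Bcl11a were near vehicle after topotecan alone, and the second Bcl11a probe set was 2.28- and 2.3-fold below it. Each of the 4 calls held under the 8 settings that kept this probe set and with each of the 8 rats of its comparison left out, with values of 1.05 to 2.30, a check added after the data were seen. Probes of related globins can share sequence, and cross-hybridisation was not tested.

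Hbb differed by -0.16 to 0.03 over the 18 comparisons, but at a vehicle mean of 15.3 it lies by the highest value of the arrays, 15.40, where a change may not be measurable. Of the genes linked to Sox6 in red cell survival, Bcl2l1, which protects late erythroblasts, was called higher at 1 h in topotecan/D5W (0.37) and topotecan/oxaliplatin (0.34) and at 6 h in oxaliplatin/topotecan (0.54), and lower at 24 h in topotecan/D5W (-0.59). Socs3, an inhibitor of cytokine signalling, was called higher at 1 h in topotecan/oxaliplatin (1.11) and oxaliplatin/topotecan (0.86) and at 6 h in oxaliplatin/topotecan (0.75). Hba-a3, an alpha-type globin, was called higher at 6 h in topotecan/D5W (0.44) and topotecan/oxaliplatin (0.49) and at 24 h in topotecan/oxaliplatin (0.37) and oxaliplatin/topotecan (0.65). Ahsp, the chaperone of free alpha-globin, was called lower in 6 of 6 treatments at 24 h (-1.13 to -2.28).

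**Figure D5:**
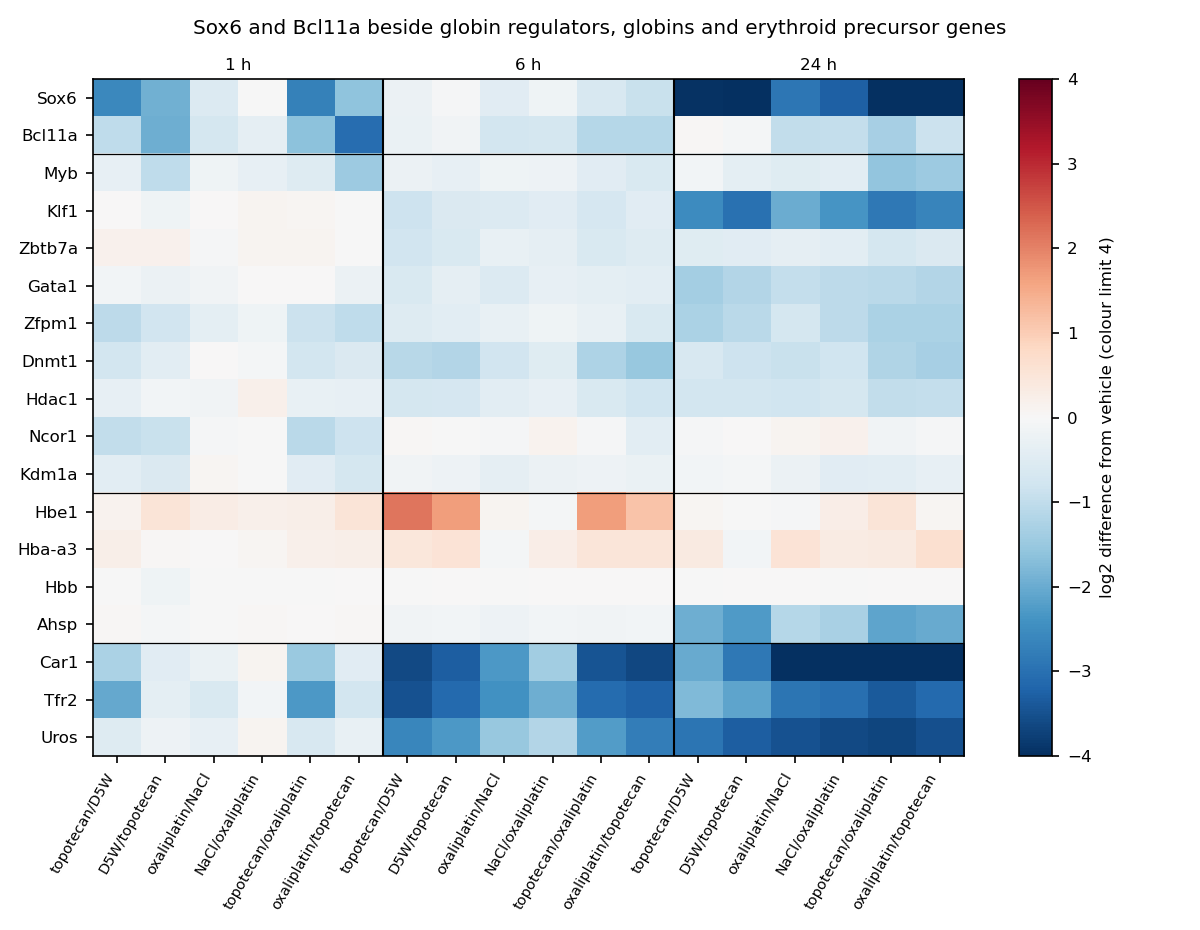
log2 difference from vehicle (colour scale) of the Sox6 and Bcl11a probe sets (first probe set of each) beside globin regulators, globins and erythroid precursor genes (rows), in the 6 treatments at 1, 6 and 24 h (columns). Hbe1 stands out at 6 h in the 4 topotecan groups (1.16 to 2.15), and Klf1 is at -1.99 to -2.97 at 24 h.

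Each treatment was tested on different rats from those of its vehicle and at each time on new rats, so no rat was followed over time. Array medians were 8.79 to 9.30 over the 93 arrays, no arrays were identical, and the number of arrays per group limits the precision.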

How the data were processed

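RNA of 93 rat marrows was hybridised to Affymetrix rat genome expression arrays. The authors normalised the arrays with RMA, kept probe sets by a principal component filter and deposited log2 values, so absent probe sets have no level here and all values are relative within the array set. After removal of 28 control probe sets, 12532 were tested, of which 10002 carried 1 symbol in the platform annotation, 292 several and 2238 none. Groups were taken from the labels, 1 rat per array, with no rat in more than 1 group. The authors excluded 1 further array, of a rat given oxaliplatin/NaCl and killed at 6 h, in quality control.

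As in the study's methods, each infusion order was fitted separately (limma 3.58.1 in R 4.3.3, lmFit and eBayes, 12 groups a fit, no covariates), and infusion order was tested in 1 fit of all 24 groups. Benjamini-Hochberg adjustment ran over the 12532 probe sets within each comparison, and a probe set was called at adjusted p under 0.01. The study's further minimum of a fold of 2 was used as an alternative. Single values were also tested by exact two-sided permutation over rats, and correlations by 1e+05 permutations within groups (Python 3.11.15, numpy 2.4.6, scipy 1.17.1, pandas 2.3.3). The fit was tested on simulated data of 12532 probe sets, drawn independently, with changes put into topotecan/D5W at 24 h. Of 50 probe sets each, 34% were recovered at a log2 change of -0.5, 86% at -1, 94% at -2 and 100% at 2. Of the unchanged ones, 3 were called. No other probe sets were changed, whereas 17.3% of all were called lower in the real comparison, so these shares need not hold for the data.

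The members and the gene lists were chosen with earlier results of these data known. Named were every probe set of Sox6 and Bcl11a, the 5 symbols of highest Pearson r with each, all measured members of the lists of relatives, globins and survival genes, and of the other lists those of largest mean change at 24 h (up to 4 in each direction). Tfr2, Slc25a37, Gypc, Zbtb7a and Kdm1a fall outside this rule and were chosen after their values were seen. The values of Alas2 and Il7r were also added after the data were seen. A gene stood for its 1-symbol probe set of highest mean. Alternatives were a second quantile normalization, median centring, an eBayes prior with trend and robust options, omission of the dimmest 25% of probe sets, other samples in the fit, animal sets as a term or apart, omission of arrays with muscle signal, pooled vehicles, other thresholds and omission of each rat. Which rats share a dosing or handling day is not given in the sources used here, and p-values measure the spread between rats. Promoters came from a RefSeq table on GRCr8, and gene spans from its gene table.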

Additional observations from a re-analysis of the deposited data

Results flagged for a closer look

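In 84 sets of 4 rats, 1 group and probe set each, the lowest or highest rat stood apart from the other 3 by Dixon's ratio in 3, and chance gives about 1 in 20. The second Sox6 probe set was 4.94 in 1 rat of D5W/topotecan at 24 h, against 5.33 to 5.39 in the others. The second Bcl11a probe set was 8.67 in 1 rat of NaCl/D5W at 6 h, against 9.11 to 9.19, and 7.36 in 1 rat of oxaliplatin/topotecan at 24 h, against 7.78 to 7.81. In each of these groups the separate rat was the lowest.

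The effect on the first Bcl11a probe set at 1 h differed between infusion orders. The log2 difference from vehicle was 0.93 higher with topotecan first than second (limma adjusted p = 0.0016, the 4 rats of topotecan/D5W all above the 4 of D5W/topotecan), and 1.39 higher in topotecan/oxaliplatin than in oxaliplatin/topotecan (adjusted p = 5.52e-06, again without overlap). Among other genes in the same comparisons, looked up after the data were seen, Myb gave 0.70 and 0.95 (adjusted p = 0.00793 and 0.000374), and Blnk, an adaptor of the B cell receptor, 0.99 and 0.71 (adjusted p = 0.00119 and 0.0249).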

How the results depend on the processing

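No called difference changed sign under the alternatives run, whereas some that were not called did: within the first animal set alone, D5W/topotecan at 6 h gave 0.31 for the first Sox6 probe set and 0.23 for the first Bcl11a probe set, and topotecan/D5W at 24 h gave -0.09 for the latter. Requiring also a fold above 2 left 7 of 18 vehicle comparisons of the first Bcl11a probe set called, 1 of 12 combination comparisons of the second Sox6 and of the second Bcl11a probe set, 2 and 0 of 6 drug comparisons of the first and second Bcl11a probe set and 1 of 9 order comparisons of the first. A second quantile normalization left 4 combination comparisons of the second Bcl11a probe set, and it or median centring left 1 drug comparison of the second Sox6 probe set. At adjusted p under 0.05, 1 order comparison of the first Sox6 probe set was called. Median centring moved the median of all probe sets by up to 0.22 (-0.22 in oxaliplatin/topotecan at 1 h). The dim filter left out the second Sox6 probe set. No paired analysis was possible because each rat gave 1 array and belonged to 1 group.

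With each of the 93 rats left out in turn, the vehicle comparisons called ranged from 10 to 12 and 12 to 13 for the Sox6 probe sets and from 12 to 13 and 14 to 15 for the Bcl11a probe sets. Combination comparisons ranged from 3 to 4, 2 to 3, 7 to 7 and 6 to 7, drug comparisons from 2 to 4, 1 to 2, 4 to 5 and 2 to 4, order comparisons stayed at 0, 0, 2 and 0, and vehicle comparisons over time at 0. The lowest drug counts came without D5W/topotecan or oxaliplatin/NaCl rats: without replicate 92 of D5W/topotecan at 1 h the second Sox6 probe set gave -0.53 (adjusted p = 0.0784), without replicate 95 at 24 h the first gave -0.87 (adjusted p = 0.034), and without replicate 89 at 24 h the second Bcl11a probe set gave 0.46 (adjusted p = 0.0445). Without the muscle arrays the second Sox6 probe set in topotecan/oxaliplatin minus NaCl/oxaliplatin at 6 h (-0.74, adjusted p = 0.0142), the second Bcl11a probe set in topotecan/oxaliplatin minus topotecan/D5W at 6 h (-0.57, adjusted p = 0.0149), in D5W/topotecan minus oxaliplatin/NaCl at 24 h (0.64, adjusted p = 0.0467) and in D5W/topotecan against vehicle at 24 h (-0.55, adjusted p = 0.0105) were no longer called. The first Bcl11a probe set at 6 h was no longer called in NaCl/oxaliplatin without NaCl/D5W replicate 10 (-0.59, adjusted p = 0.0115) or in oxaliplatin/NaCl without its replicate 39 (-0.62, adjusted p = 0.0203). The cause was not tested. The number of arrays per group, and not sequencing depth, limits the precision. In the simulation, where few probe sets were changed, a log2 change of -0.5 was recovered in 34% of cases.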

Other observations

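Other erythroid regulators were lower beside Sox6 at 24 h. Of 11 measured erythroid transcription factors, 7 to 9 were called lower in each treatment at 24 h (medians -0.55 to -1.13), 2 to 7 at 6 h and 0 to 5 at 1 h. The shares of all probe sets called lower were 17.3% to 35.2% at 24 h, 7.25% to 27.6% at 6 h and 0.0239% to 32.9% at 1 h. Of 4 measured plasmacytoid dendritic cell genes, the lineage that also carries Bcl11a, 1 to 2 were called lower at 1 h in the topotecan groups, against 19.5% to 32.9% of all probe sets, and 0 or 1 at 6 and 24 h, with up to 1 called higher. Tcf4, the defining factor of that lineage, differed by -0.81 to -1.64 at 1 h in those groups and by -0.77 in oxaliplatin/NaCl, all called, and by -0.31 in NaCl/oxaliplatin, which was not called, and at 24 h it was called higher in 4 treatments (0.54 to 0.62). Of 4 measured stem and progenitor genes, 2 to 3 were called lower at 1 h after topotecan, against the same 19.5% to 32.9%. Hoxa9, of the same list, was called higher at 1 h in D5W/topotecan (0.42). At 24 h 0 or 1 of the 4 were called lower and 1 to 3 higher.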
